A study of Mus musculus with 6 samples.

Results

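The 30 genes described here encode the subunits of the mammalian SWI/SNF (BAF) chromatin remodelling complexes, measured by RNA sequencing in mouse bone marrow cells with and without the ATPase BRM. They were chosen as a list of known subunits, by mouse symbol matched to the Ensembl identifier of each row, and all 30 were found among the 55487 genes counted. The question put to them is which subunit RNAs differ, and how the balance between alternative subunits stands, when 1 of the 2 ATPases is lost. The 6 libraries came from 3 wild-type mice (WT) and 3 Brm-/- mice (BrmKO), in which both copies of Brm, the older name of Smarca2, are inactivated. Both groups have the strain background C56Bl/6 in the labels, and no treatment, age or sex is stated. The labels do not say which part of the gene the allele removes, and the allele is not said to be restricted to blood cells. Marrow of femurs and tibiae was depleted of lineage-positive cells and sorted for cells that lack lineage markers and carry c-KIT and SCA1 (LSK cells), a mixture of blood stem cells and early progenitors.

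SWI/SNF complexes use the energy of ATP to slide or evict nucleosomes, and so open promoters and enhancers to transcription factors. Each complex holds a single ATPase, either BRG1 (Smarca4) or BRM (Smarca2), on a core of shared scaffold subunits. At most other positions a cell chooses between paralogues, and further subunits divide the complexes into canonical BAF (ARID1 and DPF proteins), PBAF (PBRM1, ARID2, PHF10 and BRD7) and non-canonical BAF (BRD9 and a BICRA protein). BRG1 is required in many tissues, blood formation included, whereas mice without BRM are viable.

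Libraries held 28.01 to 36.46 M reads in genes. The libraries numbered 3 stood apart in both genotypes, with 8.41% (WT) and 9.29% (BrmKO) of reads outside genes against 5.79% to 6.61% in the other 4. Kit, Ly6a, Cd34 and Flt3 were present in every library. Of 6 T and NK cell markers, Cd3e alone had 0 reads in all 6 libraries. Over the WT and the BrmKO libraries the others had 384 and 472 reads (Cd4), 34 and 133 (Cd8a), 21 and 97 (Ncr1), 44 and 52 (Cd3d) and 15 and 7 (Cd3g). Summed levels of 7 LSK markers ran from 2681 to 2890 CPM (counts scaled to library size) in WT and from 2916 to 3016 in BrmKO. The sum of 6 T and NK cell markers ran from 4.83 to 5.73 CPM in WT and from 7.52 to 8.95 in BrmKO. For 6 megakaryocyte markers it ran from 634 to 844 CPM in WT and from 422 to 589.9 in BrmKO. Those 3 sums did not overlap between genotypes, while B cell, myeloid, erythroid and stromal sums did. Of the markers tested, 0 of 7 LSK and 0 of 4 T and NK cell genes passed the test used below, and 1 of 5 megakaryocyte genes did, lower in BrmKO. Over all genes 0.14% passed. The CPM of the genotypes did not overlap for 2 of the 7, 2 of the 4 and 2 of the 5, against 11.1% of all genes. The stromal sum hides differences between its 7 genes, since Pecam1 (153.2 CPM in WT, 152.3 in BrmKO) was its largest part. Of these 7, 0 passed, 6 had log2 fold changes below 0 and 1 above. For 3 of the 7 the genotypes did not overlap, all lower in BrmKO. Over the WT and the BrmKO libraries these had 67 and 0 reads (Pdgfra), 545 and 43 (Lepr) and 1706 and 589 (Kdr). The part of these cell-type markers in the subunit values was not tested, and in bulk RNA fewer cells of a type and less RNA per cell cannot be told apart.

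The ATPase genes come first, because the assay must tell their RNAs apart. Smarca2 lies on chromosome 19 from 26605050 to 26778322 (GRCm38, plus strand), and Smarca4 on chromosome 9 from 21616169 to 21704230 (plus strand). Their coding sequences were 74.58% identical over 4689 aligned bases, and the longest identical run was 20 bases. The stretch below, coding exon sequence from exon 4 of each gene (chr19:26630820-26630969 and chr9:21635680-21635829), shows how the copies differ; capitals mark the 42 of 150 aligned bases that are not the same in both.
Smarca2: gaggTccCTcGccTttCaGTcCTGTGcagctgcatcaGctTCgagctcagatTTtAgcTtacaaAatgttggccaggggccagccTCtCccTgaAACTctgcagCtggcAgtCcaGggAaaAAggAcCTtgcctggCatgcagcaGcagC
Smarca4: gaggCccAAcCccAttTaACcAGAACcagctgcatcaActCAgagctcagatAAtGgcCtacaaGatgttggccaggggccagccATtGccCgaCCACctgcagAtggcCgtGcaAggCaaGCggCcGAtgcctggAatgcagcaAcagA
A search for shared sequence took 1 transcript per member, that with the longest coding sequence. For Smarca2 this transcript has 5862 bases against 14269 in merged exons, and counted exon bases outside the chosen transcripts were not searched. None of the 5813 windows of 50 bases in the Smarca2 transcript occurred in a transcript of another gene, with genes that overlap its position left out. The same search over all members, again without overlapping genes, found 19 with no such window and 0 that shared a window with another member. Among the 19 are Smarcd3, Smarcd1 and Bicral, of whose exon bases 48.2%, 12.7% and 11.3% overlap other genes on the opposite strand. More than 10% of windows lay in other genes for 4 members: Smarce1, Bcl7c, Ss18 and Actb. For Smarce1, Bcl7c and Ss18 the gene that shared most was a processed pseudogene, with 162, 56 and 59 reads over all libraries, and for Actb it was Lrrc58.

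Smarca2 RNA fell to 15.1% of its WT level in BrmKO cells and was the only subunit that passed the test. The WT mice gave 6284, 6932 and 4270 reads, and the BrmKO mice gave 805, 761 and 958. Scaled to library size, these were 179 ± 31.9 CPM and 27.1 ± 0.691 CPM (SD, n = 3 mice each, as for every value below). The groups were far from overlapping, and the 3 BrmKO libraries lay between 26.5 and 27.9 CPM. The log2 fold change was −2.72 ± 0.13 (SE, 95% interval −3.02 to −2.43), with an adjusted p of 2.97e-05 by edgeR's quasi-likelihood test with Benjamini-Hochberg adjustment over 15691 genes. The reads that remained are counted over the whole gene, so the counts do not show which exons they come from.

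Smarca4, which encodes the alternative ATPase BRG1, had 11293, 11178 and 7497 reads in WT and 10764, 10005 and 9772 in BrmKO. In CPM these were 306.5 ± 40.4 for WT and 330.9 ± 40.8 for BrmKO, and the groups overlapped. The log2 fold change was 0.11 ± 0.13 with a 95% interval of −0.17 to 0.39 (edgeR adjusted p = 0.999). The interval allows a difference in either direction, so the data do not show that Smarca4 RNA was the same in both genotypes.

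Within the ATPase pair, Smarca2 took a smaller share in every BrmKO library. Measured as RPKM, that is CPM divided by the length of the merged exons in kilobases, Smarca2 made up 20.2%, 22.0% and 20.5% of ATPase RNA across the WT libraries, against 3.28%, 3.34% and 4.26% across the BrmKO libraries. Every WT value lay above every BrmKO value, and the means were 20.9 ± 0.950% and 3.63 ± 0.549%. Within a library, the log2 ratio of Smarca2 to Smarca4 averaged −1.92 ± 0.08 for WT and −4.74 ± 0.22 for BrmKO, a difference of −2.82. Smarca4 RNA was thus 3.79 times as abundant as Smarca2 RNA in WT and 26.8 times in BrmKO, per kilobase of merged exons. The share in WT depends on the gene length used, because the merged exons of Smarca2 span 14269 bases and its longest transcript 5921 bases. With longest transcripts Smarca2 made up 38.5 ± 1.36% of ATPase RNA in WT and 8.19 ± 1.18% in BrmKO, while the difference of the log2 ratio does not depend on length.

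The summed ATPase RNA of Smarca2 and Smarca4 was 60.3, 68.1 and 51.2 RPKM in WT and 57.5, 55.7 and 45.8 RPKM in BrmKO. These ranges overlapped, and the BrmKO mean (53.0 ± 6.26) was 88.5% of the WT mean (59.9 ± 8.43). Smarca2 was lower by a mean difference of −10.6 RPKM, and the Smarca4 mean differed by 3.77 RPKM. The overlap was seen with merged exons only. With longest transcripts the sum was 78.3 ± 11.6 RPKM in WT and 56.5 ± 6.30 in BrmKO, 72.1% of WT, and the groups did not overlap. Without length correction it was 485.5 ± 71.75 CPM in WT and 358.0 ± 40.21 in BrmKO, 73.7% of WT, also without overlap. No test was made of these sums or shares.

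**Figure D1:**
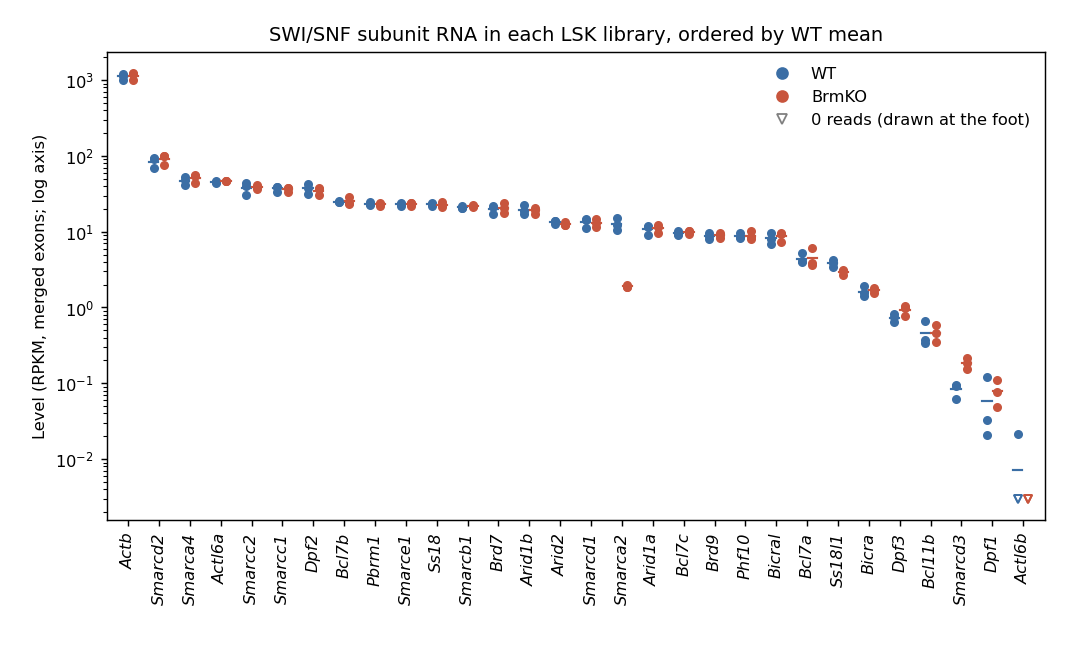
Level of each SWI/SNF subunit in RPKM (log axis, merged exons) in each WT (blue) and BrmKO (red) library, ordered by WT mean; points are libraries, short bars are means and open triangles are 0 reads. Smarca2 has BrmKO points far below its WT points, at a mean of 1.90 against 12.5 RPKM.

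Among the other 28 subunits tested, 0 passed the adjusted threshold of 0.05 with edgeR, DESeq2 or limma-voom. Of all 15691 genes tested, 0.14% passed (22 genes). At an unadjusted p under 0.05 there were 2 of the 28, Smarcd3 and Ss18l1, against 5.85% of all genes. The groups did not overlap in CPM for the same 2 (7.14% of 28), against 11.1% of all genes, and 2 of 28 lies near both backgrounds. The median log2 fold change of the 28 was 0.03, with 19 above 0 and 9 below, and the median over all genes was −0.005 with 48.8% above 0. Of the 24 subunits other than Smarca2 at 5 CPM or more in WT, fold changes ran from −0.38 to 0.11 on the log2 scale. Their 95% intervals together spanned −0.73 to 0.47, that is 0.605- to 1.38-fold, and 23 of the 24 intervals held 0.

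**Figure D2:**
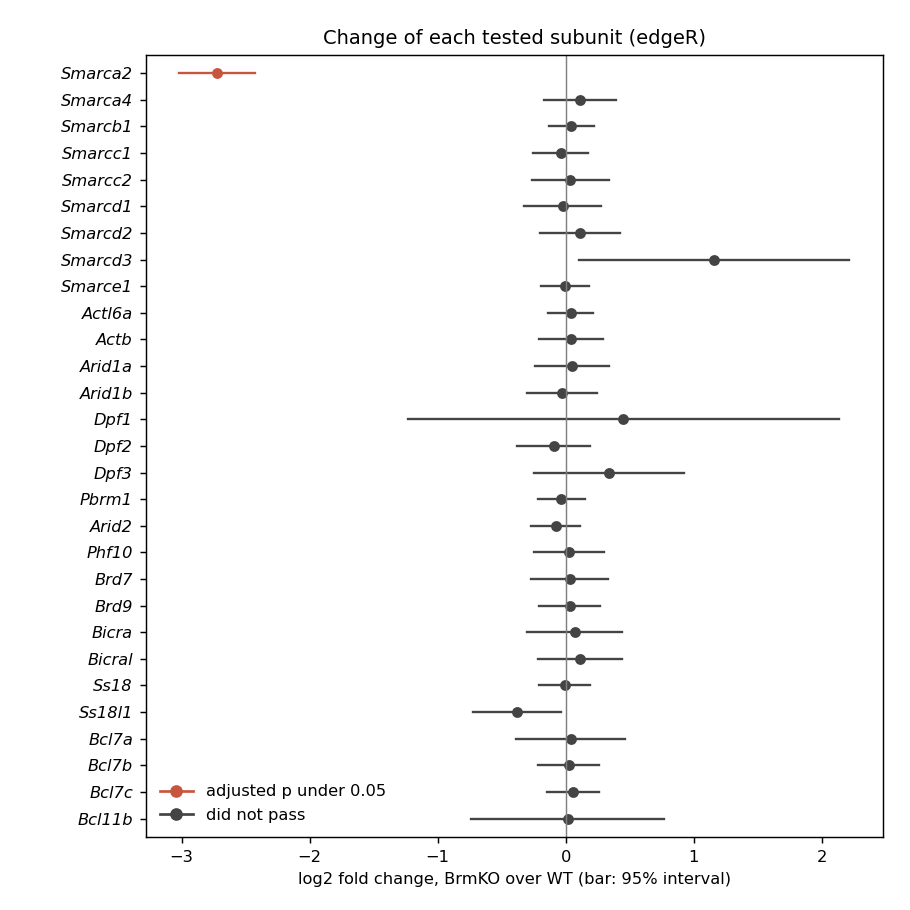
Log2 fold change (BrmKO over WT) of the 29 tested subunits from edgeR, with 95% intervals as bars. Smarca2 at −2.72 is the only one past the adjusted threshold (red), and the others at 5 CPM or more sit between −0.38 and 0.11, with wide bars for the scarce Dpf1 and Smarcd3.

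No subunit of the scaffold and common core passed the test. Smarcb1, whose product contacts the nucleosome's acidic patch and is a tumour suppressor, was at 166.9 ± 5.25 CPM in WT and 172.1 ± 5.15 in BrmKO (log2 fold change 0.04 ± 0.08). Smarce1, an HMG-box subunit, was at 153.5 ± 6.25 and 153.0 ± 8.02 CPM (−0.01 ± 0.08). Of the scaffold paralogues around which the complex assembles, Smarcc1 had a log2 fold change of −0.04 ± 0.10 and Smarcc2 of 0.04 ± 0.13. Smarcc2 made up 50.2 ± 2.83% of the summed RPKM of this pair in WT and 51.8 ± 0.907% in BrmKO. Which of the pair is larger depends on the length used, since Smarcc1 made up 52.5 ± 2.82% in WT with longest transcripts. For all of these the edgeR adjusted p was 0.999.

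At the SMARCD position, a link between the ATPase module and transcription factors, most RNA came from Smarcd2, the paralogue required for neutrophil granule formation. In RPKM, Smarcd2 was the most abundant subunit after beta-actin, at 84.1 ± 12.9 in WT and 90.9 ± 12.8 in BrmKO (log2 fold change 0.11 ± 0.14, edgeR adjusted p = 0.999). Without length correction its WT mean was below that of Smarca4, at 301.9 ± 46.35 against 306.5 ± 40.44 CPM. The Smarcd2 share of SMARCD RNA was 86.3%, 86.3% and 86.0% across the WT libraries, against 88.2%, 86.7% and 86.7% across the BrmKO libraries. The groups did not overlap, but the means differed by 0.962 percentage points. Smarcd1 held 13.7 ± 0.199% in WT and 12.6 ± 0.814% in BrmKO, also without overlap.

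Smarcd3, the paralogue known from heart and muscle, was nearly absent, with 17, 16 and 9 reads in WT and 24, 32 and 33 in BrmKO. These are 0.426 ± 0.0956 CPM in WT and 0.959 ± 0.156 CPM in BrmKO, and every BrmKO library was above every WT library. The log2 fold change was 1.16 ± 0.47 (unadjusted p = 0.0349), which did not pass (edgeR adjusted p = 0.795). Of its merged exon bases, 48.2% overlap Chpf2 or Mir671 on the opposite strand. The kit keeps no strand, so reads of that overlap cannot be told apart. Chpf2 itself was at 47.9 ± 8.34 CPM in WT and 47.7 ± 4.84 in BrmKO (edgeR adjusted p = 0.999). Of 5 muscle markers, Myh6, Myh7 and Des had 0 reads in all 6 libraries, while Ckm had 7 reads over the WT libraries and 19 over the BrmKO libraries, and Acta1 9 and 12.

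Actin and actin-related subunits couple the ATPase to the rest of the complex. Actl6a was at 176.0 ± 6.20 CPM in WT and 180.8 ± 2.05 in BrmKO (log2 fold change 0.04 ± 0.08, edgeR adjusted p = 0.999). Its paralogue Actl6b, which replaces it in neurons, had 0, 3 and 0 reads in WT and 0 in each BrmKO library, too few to be tested. Of 4 neuronal markers, Snap25 and Syt1 had 0 reads in all libraries, Rbfox3 had 9 over the WT libraries and 5 over the BrmKO libraries, and Tubb3 had 57 and 45. Actb, which also makes the cytoskeleton, was at 2993 ± 265 CPM in WT and 3077 ± 329.7 in BrmKO, with an edgeR adjusted p of 0.999. Beta-actin has a close relative outside the list, Actg1, and the stretches below show how alike their coding sequences are. They come from coding bases 845 to 994 (minus strand, chr5:142903932-142904206 for Actb and chr11:120346524-120346776 for Actg1, each with an intron between exons 5 and 6 left out), and capitals mark the 13 of 150 bases that differ.
Actb: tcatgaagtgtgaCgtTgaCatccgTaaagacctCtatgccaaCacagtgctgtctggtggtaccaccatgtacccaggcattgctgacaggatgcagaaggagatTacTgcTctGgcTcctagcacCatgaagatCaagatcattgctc
Actg1: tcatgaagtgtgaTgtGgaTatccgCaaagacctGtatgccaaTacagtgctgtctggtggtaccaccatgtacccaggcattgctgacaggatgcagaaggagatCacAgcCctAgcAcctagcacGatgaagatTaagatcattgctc
The longest run without a difference between these coding sequences was 62 bases, against 11 to 31 bases between the paralogues within the list. Actg1 was at 590.8 ± 71.6 CPM in WT and 572.1 ± 64.5 in BrmKO (log2 fold change −0.05 ± 0.12).

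Of the canonical BAF subunits, the large ARID1 proteins bind DNA without sequence preference and are mutually exclusive. Arid1b was the more abundant, at 64.2 ± 4.68% of ARID1 RNA (RPKM) in WT and 63.0 ± 0.943% in BrmKO. Arid1a was at 123.9 ± 16.9 CPM in WT and 128.4 ± 16.4 in BrmKO (log2 fold change 0.05 ± 0.13), and Arid1b had a log2 fold change of −0.03 ± 0.12. WT replicate 1 had the highest Arid1a share (41.2%) against 33.7% and 32.6% in the other WT libraries, so the spread among WT mice exceeded the difference between genotypes.

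DPF proteins read acetylated histone tails through paired PHD fingers, and PHF10 takes their place in PBAF. Dpf2, the broadly expressed form, was at 242.1 ± 33.1 CPM in WT and 226.7 ± 27.4 in BrmKO (log2 fold change −0.10 ± 0.13). It made up 79.4 ± 3.45% of the DPF and PHF10 RNA (RPKM) in WT and 77.8 ± 1.997% in BrmKO, and Phf10 18.9 ± 3.18% and 19.9 ± 1.70%. Dpf3, known from heart and muscle, had 97, 102 and 100 reads in WT and 98, 126 and 142 in BrmKO (log2 fold change 0.34 ± 0.26, edgeR adjusted p = 0.999). Dpf1, the neuronal form, had 4, 21 and 5 reads in WT and 18, 12 and 9 in BrmKO, a depth that left a 95% interval of −1.23 to 2.13 on the log2 scale.

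PBAF adds its own ARID, PHD and bromodomain subunits, and none of their genes passed. Pbrm1, whose product carries a row of bromodomains, was at 207.6 ± 9.92 CPM in WT and 202.4 ± 6.78 in BrmKO (log2 fold change −0.04 ± 0.08). Arid2, the ARID protein of PBAF, was at 143.5 ± 6.996 and 135.7 ± 7.64 CPM (−0.08 ± 0.09). Phf10 had a log2 fold change of 0.02 ± 0.12, and Brd7, a bromodomain protein, of 0.03 ± 0.13. All 4 had an edgeR adjusted p of 0.999.

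In non-canonical BAF, Brd9, the bromodomain subunit that marks this form, was at 61.5 ± 5.73 CPM in WT and 62.8 ± 5.11 in BrmKO (log2 fold change 0.03 ± 0.11). The scaffold Bicra (also known as GLTSCR1) had a log2 fold change of 0.07 ± 0.17, and its paralogue Bicral of 0.11 ± 0.15. Bicral was the main form of the pair, at 83.4 ± 0.400% of their RNA (RPKM) in WT and 83.7 ± 2.42% in BrmKO. Brd7 and Brd9, which belong to different complexes, stood at 69.4% and 30.6% of their summed RPKM in WT and at 69.4% and 30.6% in BrmKO.

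The remaining positions are those of SS18, the subunit fused in synovial sarcoma, and of the BCL7 and BCL11 proteins. Ss18l1, the SS18 paralogue of neuronal complexes (CREST), had 530, 539 and 526 reads in WT and 405, 373 and 399 in BrmKO. In CPM these were 16.6 ± 1.93 for WT and 12.7 ± 0.999 for BrmKO, and every BrmKO library was below every WT library. The log2 fold change of −0.38 ± 0.15 (unadjusted p = 0.0330) did not pass (edgeR adjusted p = 0.795). Ss18 itself was at 215.6 ± 6.99 CPM in WT and 214.1 ± 15.9 in BrmKO. Its share of SS18-family RNA (RPKM) was 87.2%, 86.1% and 83.8% for WT, against 88.7%, 88.2% and 88.8% for BrmKO, 85.7 ± 1.70% against 88.6 ± 0.305%, without overlap. The WT library numbered 3 had the lowest Ss18 share. With both libraries numbered 3 left out, the log2 fold change of Ss18l1 was −0.23 (unadjusted p = 0.202).

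BCL7 proteins sit on the ATPase module. Per length of merged exons, Bcl7b was the most abundant at 64.1 ± 1.72% of BCL7 RNA (RPKM) in WT and 63.5 ± 3.59% in BrmKO, followed by Bcl7c (24.5% and 25.0%) and Bcl7a (11.4% and 11.5%). In reads not corrected for length, Bcl7c came first instead, at 40.3% in WT and 40.9% in BrmKO against 35.1% and 34.7% for Bcl7b. The log2 fold changes of Bcl7b, Bcl7c and Bcl7a were 0.03 ± 0.11, 0.06 ± 0.09 and 0.04 ± 0.19. Bcl11b, a zinc-finger subunit best known as a T cell factor, had 194, 91 and 86 reads in WT and 112, 137 and 97 in BrmKO (log2 fold change 0.02 ± 0.33, edgeR adjusted p = 0.999). Its groups overlapped in CPM, and the interval of its log2 fold change ran from −0.74 to 0.77. The summed T and NK cell markers did not overlap, but Cd4 had most of their reads (384 in WT, 472 in BrmKO). Whether T cells contributed to the reads of Bcl11b was not tested. Its paralogue Bcl11a, a B cell and globin regulator outside the list, was at 91.3 ± 6.74 CPM in WT and 88.9 ± 1.94 in BrmKO.

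**Figure D3:**
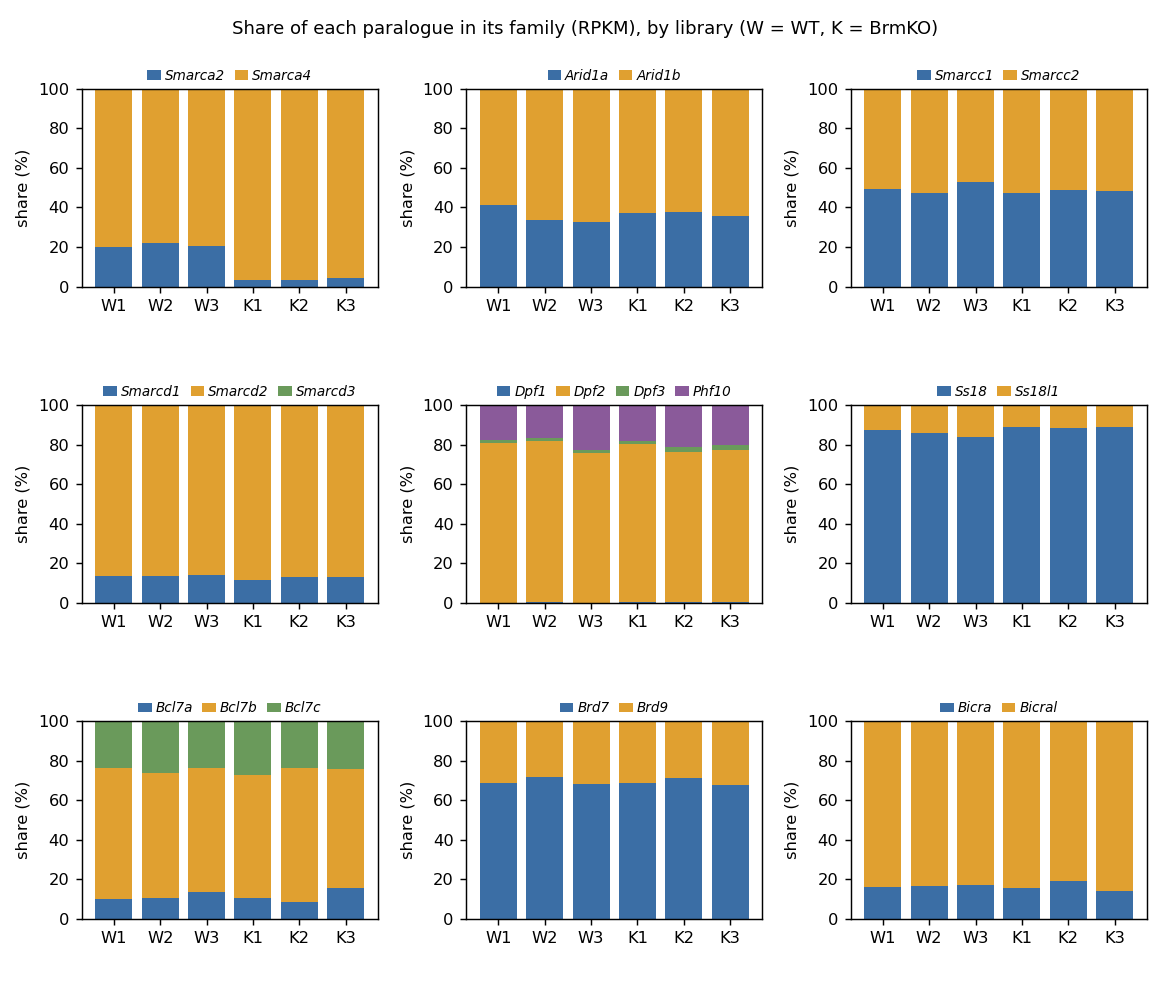
Share (%) of each paralogue in the summed RPKM of its family, 1 bar per library (W1 to W3 are WT, K1 to K3 are BrmKO). In the Smarca2 and Smarca4 panel the lower part of the bar (Smarca2) is 20.9% in WT and 3.63% in BrmKO; in the SS18 and SMARCD panels the groups do not overlap but differ by 2.89 and 0.962 percentage points for Ss18 and Smarcd2.

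Over all families, 20 pairs of paralogues were compared by their log2 ratio within each library, and in 6 the genotypes did not overlap. Over single genes, a different quantity, the CPM of the groups did not overlap for 11.1%. The 6 pairs were the ATPase pair, the 3 SMARCD pairs, Dpf3 with Phf10, and Ss18 with Ss18l1. The pairs share members, so they are not independent, and no test was made of them. The log2 ratio of Dpf3 to Phf10 was −3.58 ± 0.11 in WT and −3.26 ± 0.23 in BrmKO, a difference of 0.32 beside the −2.82 of the ATPases. For Smarcd1 over Smarcd3 the difference was −1.21, and for Smarcd2 over Smarcd3 it was −1.07, both resting on the few reads of Smarcd3. For Smarcd1 over Smarcd2 it was −0.13, and for Ss18 over Ss18l1 it was 0.37.

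Ranked by WT level in RPKM, Smarca2 stood at place 17 of 30, between Smarcd1 (13.3 ± 1.85) and Arid1a (10.8 ± 1.47). At the top after Actb were Smarcd2 (84.1), Smarca4 (47.3), Actl6a (45.3), Smarcc2 (38.2), Smarcc1 (37.5) and Dpf2 (37.2). In all, 25 members reached 1 RPKM in WT. The 5 below it were Dpf3 (0.736), Bcl11b, Smarcd3, Dpf1 and Actl6b. Of the 29 steps between neighbours in this order, 20 joined members whose WT libraries overlapped, so most of the order is not resolved. By longest transcript Smarca2 stood at place 11.

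Many subunits were lowest in the same library of each genotype. In 15 of the 29 tested members (51.7%) the library numbered 3 was the lowest of its group in both WT and BrmKO, against 22.1% of all tested genes. The 15 included Smarca4, Smarcc1, Smarcc2, Smarcd2, Arid1a and Dpf2, and this pattern was noticed after the values were seen. The median deviation of 24 members from their mean over all libraries was −0.104 in WT replicate 3 and −0.108 in BrmKO replicate 3 on the log2 CPM scale, against 0.026 to 0.087 in the other 4 libraries. Members above their mean were Bcl7a, Ss18l1 and Phf10 in WT replicate 3 (0.232, 0.354 and 0.114) and Bcl7a, Bicral and Actl6a in BrmKO replicate 3 (0.446, 0.162 and 0.013). These were also the libraries with the most reads outside genes; the part of that in the pattern was not tested. Without both of them Smarca2 had a log2 fold change of −2.86, still the only subunit that passed, and the median of the others was 0.04.

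**Figure D4:**
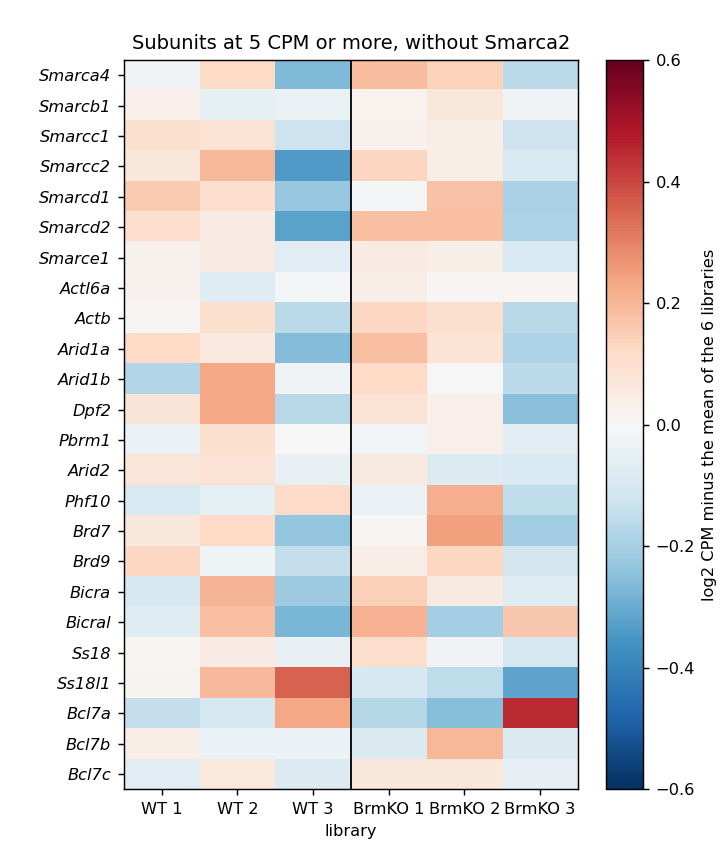
Log2 CPM of 24 subunits at 5 CPM or more (Smarca2 left out) in each library, as the difference from the gene's mean over all 6 libraries; red is above the mean and blue below. The columns WT 3 and BrmKO 3 are mostly blue, with medians of −0.104 and −0.108, against 0.026 to 0.087 in the other 4.

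Genes outside the complex that are tied to it were read from the same fit. Of 17 transcription factors and cofactors with known SWI/SNF contacts, 0 passed, 9 had values above 0 and 8 below. With the smallest p, Runx1, a regulator of definitive blood formation, was at 139.5 ± 20.4 CPM in WT and 115.5 ± 4.85 in BrmKO (log2 fold change −0.27 ± 0.11, edgeR adjusted p = 0.80). Myc was at 667 ± 11.9 and 730.5 ± 50.8 CPM, without overlap (0.13 ± 0.09), and Rb1, whose product binds the ATPases, had a log2 fold change of −0.16 ± 0.12. At an unadjusted p under 0.05 there was 1 of the 17, near the 5.85% of all genes, and 0 passed with DESeq2 or limma-voom.

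Of 13 genes known, as background, to depend on a SWI/SNF ATPase in other cells, 11 could be tested and 0 passed with edgeR, DESeq2 or limma-voom, with 2 at an unadjusted p under 0.05 by edgeR. Over all genes 0.14% passed and 5.85% had an unadjusted p under 0.05. Fos, an immediate early gene, was at 2624 ± 921 CPM in WT and 4190 ± 789 in BrmKO (log2 fold change 0.67 ± 0.23, edgeR adjusted p = 0.706), and the groups overlapped. Ciita, the activator of MHC class II genes, was at 5.97 ± 4.46 CPM in WT and 12.9 ± 2.53 in BrmKO (1.12 ± 0.45, edgeR adjusted p = 0.795). Its libraries were at 2.68, 4.18 and 11.0 CPM in WT and at 10.5, 15.6 and 12.7 in BrmKO, so that WT replicate 3 alone reached the BrmKO range. Without that library the log2 fold change of Ciita was 1.92 (edgeR adjusted p = 0.0443), and without both libraries numbered 3 it was 1.93 (edgeR adjusted p = 0.0751). Each library was left out in turn. WT replicate 3 had the highest Ciita value of the WT libraries, so its removal widens the difference and cannot serve as support. In no other fit did any of these genes pass. With all 6 libraries Ciita had an adjusted p of 0.224 with DESeq2 and 0.477 with limma-voom. Ccne1, a cyclin of S-phase entry, had a log2 fold change of 0.21 ± 0.12. Cdkn2a, a cell cycle inhibitor locus, had 0 reads in all 6 libraries, and Cav1 was too low to be tested. Cd44 and Csf1, which lose expression in tumour lines without both ATPases, had log2 fold changes of −0.07 ± 0.09 and −0.21 ± 0.21 (edgeR adjusted p = 0.999).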

How the data were processed

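RNA of 6 LSK samples was sequenced from SMART-Seq v4 libraries, which do not mark strand and carry no molecular identifiers. The files deposited by the authors hold raw counts of reads for each Ensembl gene, 1 table per library. The submitters' processing notes name bcl2fastq, FastQC, STAR, HTSeq, DESeq2 and the build GRCm38, with versions, strand setting and annotation release not given in the sources used here. In each library, 5 rows that name no gene were kept out, among them reads outside genes (5.79% to 9.29%) and ambiguous reads (6.23% to 6.47%).

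BrmKO and WT were compared with edgeR 4.0.16 (R 4.3.3; quasi-likelihood test, robust, TMM, filterByExpr, no covariate) over all genes, which was tested on simulated data, with Benjamini-Hochberg adjustment over 15691 genes and a threshold of 0.05. DESeq2 1.42.0 and limma-voom (limma 3.58.1) were alternatives, with other normalisation, filters, lengths and libraries left out. Exon lengths, positions and transcript sequences are from GENCODE M21 on GRCm38, which held 55227 of the 55487 genes. Libraries were grouped by their labels, each from a separate mouse, so p-values measure the spread between 3 mice a group; no pair of libraries agreed within sampling noise.

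The members and lists were chosen with earlier results of these data known. Values in every library are given for Smarca2, Smarca4 and any member that passed, had an unadjusted p under 0.05 or had groups that did not overlap, for scarce members, and for shares; up to 3 genes of smallest p are named per pathway list. Other names, such as Chpf2, Cd44, Csf1, Cdkn2a and Cav1, were chosen after their values were seen.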

Additional observations from a re-analysis of the deposited data

How the results depend on the processing

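In all 12 alternative fits Smarca2 was the only subunit past the threshold, with log2 fold changes of −2.86 to −2.58 and adjusted p-values of 4.67e-80 to 0.00147. The number of all genes past it, 22 in the main comparison, was 58 without a filter on low counts and 142 with DESeq2, and ranged from 6 (without WT replicate 2) to 36 (without WT replicate 3) when 1 library was left out, with 7 without WT replicate 1 and 9 without BrmKO replicate 1. Deviations of same-numbered libraries correlated at 0.052, 0.008 and 0.194, not all above 0.1, so the numbers were not taken to pair mice, although WT replicate 3 was closer to BrmKO replicate 3 (chi-square per degree of freedom 18.69) than to any other library (39.18 to 47.75); with the replicate number as a block, 25 genes passed and Smarca2 was at −2.71 (adjusted p = 0.000107). Smarcd3 ranged from 0.989 to 1.27 with an unadjusted p under 0.05 in 3 of the 12 fits, and Ss18l1 from −0.464 to −0.233 in 7 of the 12. Gene length moved shares of RNA, and without length correction the difference of the Bcl7a share turned from 0.0926 to −0.13 points; Bcl7c (40.34%) then exceeded Bcl7b in WT, and Smarcc1 exceeded Smarcc2 under both other lengths. With longest transcripts, WT shares were 38.51% for Smarca2 (difference −30.32 points), 58.74% for Arid1b within ARID1 and 40.25% within all ARID genes, 87.04% for Smarcd2, 85.61% for Dpf2, 93.14% for Ss18 (difference 1.484) and 81.4% for Bicral, summed ATPase RNA was 72.13% of WT, and Smarca2 ranked 11. Without length correction they were 36.77% for Smarca2 (−29.12), 41.71% for Smarcc2, 84.78% for Smarcd2, 83.73% for Dpf2, 92.85% for Ss18 (1.543), 35.07% for Bcl7b, 63.15% for Brd7 and 81.29% for Bicral, and Smarca2 ranked 10. Depth limits Dpf1, Smarcd3 and Actl6b, which had at most 33 reads in a library.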
